A study of Mus musculus with 11 samples.

Results

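Neurotransmitter receptor subunit genes were followed in cultures that began as neural stem cells from the frontal cortex of C57BL/6J mouse embryos at embryonic day 14.5. The genes were chosen by symbol: AMPA, kainate, NMDA, delta and metabotropic glutamate receptors, GABA-A and GABA-B receptors, glycine receptors, nicotinic and muscarinic acetylcholine receptors, and serotonin, dopamine and adrenergic receptors. The search pattern matched 106 of the 37991 genes listed, of which 100 encode a receptor subunit. The other 6 (Htra1, Htra2, Htra3, Htra4, Adrbk1 and Adrbk2) share only the letters of the symbol and are described apart. Of the 100 receptor genes, 38 reached 1 CPM (read counts scaled to library size) in at least 2 libraries and were tested, 56 did not, and 6 were listed at 0 in every library. No expression value was used to match the symbols.

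The NSC group (3 libraries, day 0) was kept in a proliferation medium. The other cultures received a new medium and were collected on day 4. The Astrocyte group (3 libraries) had DMEM, 1% fetal bovine serum and 1% N-2 supplement, the Neuron group (3 libraries) had Neurobasal with 2% B-27 supplement, and the Oligodendrocyte group (2 libraries) had the Neuron medium plus the thyroid hormone T3 at 30 ng/mL. The group names stand for the medium and do not say which cells were present. Below, with T3 means with T3 added, and any thyroid hormone in serum or B-27 is not known from these data. All groups shared the strain, tissue and expansion step, and the labels give no genetic change. No culture stayed in proliferation medium until day 4, so medium and time in culture cannot be told apart in any comparison with NSC.

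Ionotropic receptors are ion channels built from several subunits that open when a transmitter binds. Metabotropic receptors signal through G proteins. Neurons use them at synapses, and progenitors and glia of the developing cortex carry many of the same receptors, through which transmitters can act on division, migration and calcium signalling.

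Estimated depth was 49.3 M to 66.2 M reads per library, where 1 read was worth 0.0151 to 0.0203 CPM and 3 reads, taken as the limit of detection, 0.0453 to 0.0609 CPM. Neuron replicate 2 had the largest mitochondrial share of reads, 8.91%. The other Neuron libraries had 6.91% and 6.82%, Astrocyte libraries up to 7.93%, and NSC libraries 4.54% to 4.71%. Neuron replicate 2 was also the lowest of the 3 Neuron libraries for 30 of the 38 tested receptor genes (78.9%, against 49.4% of all genes tested). Without it, 35 receptor genes were called in Neuron vs NSC, 28 in Astrocyte vs Neuron and 27 in Oligodendrocyte vs Neuron, where 34, 27 and 26 were called with it. The labels of the groups were set against marker lists. Astrocyte markers (10 genes) summed to 1795 to 1888 CPM in NSC, 16230 to 17879 in Astrocyte, 9711 to 10620 in Neuron and 4636 to 5091 in Oligodendrocyte. Single members differed from this sum: 4 were called higher and 6 lower in Astrocyte than in Neuron (40.3% and 22% of all genes). Gfap was at means of 7631 and 2647 CPM there and Slc1a2 at 269.6 and 869.6 CPM. Mature oligodendrocyte markers (10 genes, Mbp among them) summed to 76.9 to 85.6, 467.1 to 601.0, 2793 to 3014 and 2805 to 3213 CPM in the same order, so the Neuron and Oligodendrocyte libraries overlapped. Neuron markers (10 genes) summed to between 806.3 and 1275 CPM in all groups, of which Map2 alone had group means of 604.3 to 885.3 CPM. Of the 7 tested, 5, 6 and 5 were called higher than in NSC in Astrocyte, Neuron and Oligodendrocyte, and 2, 0 and 2 lower. Dcx rose from a mean of 1.60 CPM in NSC to 124.8, 147.7 and 86.6 CPM. Stmn2, Nefl and Nefm stayed under 1 CPM in every library, as did the vesicular glutamate transporters Slc17a7 and Slc17a6. GABAergic interneuron markers (9 genes) summed to 23.9 to 24.7 CPM in NSC, 91.1 to 120.2 in Astrocyte, 65.5 to 84.9 in Neuron and 32.2 to 36.8 in Oligodendrocyte. Of the 6 tested, 6, 6 and 5 were called higher than in NSC, and Lhx6, Sst and Npy stayed under 1 CPM in every library. Of all genes tested, 48%, 43.5% and 48.1% were called higher than in NSC, and 35.6%, 39.6% and 32.2% lower. Mesenchymal and endothelial markers (10 genes, 6 of them under 1 CPM everywhere) summed to 9.72 to 12.8 CPM in NSC, 87.6 to 98.0 in Astrocyte, 40.5 to 47.9 in Neuron and 21.8 to 22.1 in Oligodendrocyte, and microglia markers to 1.32 CPM or less in every library. The part of these shifts in the receptor values was not tested. The cells behind a receptor value are therefore not identified by the group name, and in such bulk RNA fewer cells of a type cannot be told apart from less RNA per cell.

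The media of the Oligodendrocyte and Neuron groups differed by the added T3 alone, and the upstream sequences of 4 receptor genes are shown for that reason. T3 acts through nuclear receptors that bind the hexamer AGGTCA, often as a direct repeat. Adra2a and Chrna7 were higher with T3, whereas Chrnb2 and Grin2c are the 2 tested receptor genes with this hexamer in the window searched. Each run is the 250 bases before the annotated start (RefSeq, GRCm38.p6), 5′ to 3′ on the gene's strand, with the hexamer on either strand in capitals.
Adra2a, chr19:54045009-54045258, plus strand: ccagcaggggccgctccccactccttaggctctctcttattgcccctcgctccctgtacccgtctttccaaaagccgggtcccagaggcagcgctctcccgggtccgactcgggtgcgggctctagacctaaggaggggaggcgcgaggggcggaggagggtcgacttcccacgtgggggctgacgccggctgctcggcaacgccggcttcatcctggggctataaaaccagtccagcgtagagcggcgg
Chrna7, chr7:63212527-63212776, minus strand: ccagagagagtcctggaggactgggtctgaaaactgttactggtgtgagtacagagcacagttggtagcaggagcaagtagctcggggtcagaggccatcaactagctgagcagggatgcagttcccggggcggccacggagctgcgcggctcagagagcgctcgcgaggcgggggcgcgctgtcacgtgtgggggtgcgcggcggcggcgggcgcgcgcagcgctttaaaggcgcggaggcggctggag
Chrnb2, chr3:89764633-89764882, minus strand: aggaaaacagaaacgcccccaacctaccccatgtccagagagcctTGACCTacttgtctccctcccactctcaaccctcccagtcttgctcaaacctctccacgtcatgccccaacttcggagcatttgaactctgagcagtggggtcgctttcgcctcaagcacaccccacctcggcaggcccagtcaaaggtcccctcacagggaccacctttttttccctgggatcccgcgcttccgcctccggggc
Grin2c, chr11:115267244-115267493, minus strand: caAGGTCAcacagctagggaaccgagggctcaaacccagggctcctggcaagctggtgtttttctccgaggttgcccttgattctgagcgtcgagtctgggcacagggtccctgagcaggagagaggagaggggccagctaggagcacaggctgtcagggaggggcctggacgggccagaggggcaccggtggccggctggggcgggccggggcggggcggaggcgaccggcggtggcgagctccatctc
The hexamer began 205 bases before the start of Chrnb2, where it reads TGACCT on this strand, and 248 bases before that of Grin2c. Windows of 300 bases (250 before and 50 after a start) were found for 25 of the 38 tested genes, 26 windows in all, and 2 held the hexamer. Among all 32851 windows 16.3% did. The direct repeat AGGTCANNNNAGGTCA, searched on both strands and containing the hexamer, occurred in 5 windows (0.0152%) and in none of the receptor genes. Neither Chrnb2 nor Grin2c was called between Oligodendrocyte and Neuron, although Grin2c was called lower under median-of-ratios scaling (-0.31, adjusted p 0.0332) and quantile normalization (-0.41, adjusted p 0.00531). A missing match says only that these letters are not in this window.

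From day 0 to day 4, most of the tested receptor genes changed in each medium, as did most genes. A linear model (limma) on log2(CPM + 1) was used throughout, with p-values adjusted by the Benjamini-Hochberg method over all 13342 genes tested in a comparison and a call at an adjusted p under 0.05. In Astrocyte vs NSC 19 receptor genes were higher and 13 lower, together 84.2% of the 38, against 83.6% of all genes (48% higher, 35.6% lower). In Neuron vs NSC 24 were higher and 10 lower (89.5%, against 83.1% of all genes, 43.5% higher and 39.6% lower). In Oligodendrocyte vs NSC the numbers were also 24 and 10 (89.5%, against 80.2% of all genes, 48.1% higher and 32.2% lower). The shares called lay near the background. Libraries of both groups did not overlap for 33, 34 and 36 receptor genes (86.8%, 89.5% and 94.7%, against 86.2%, 83.2% and 89.3% of all genes). Changes of at least 2-fold on log2(CPM + 1) were found for 14 (36.8%, against 33.7%), 17 (44.7%, against 31.8%) and 21 (55.3%, against 32%) of the receptor genes. Their median log2 fold changes were 0.24, 0.63 and 0.60, beside 0.15, 0.06 and 0.19 over all genes. Quantile normalization turned the balance in Astrocyte vs NSC to 13 higher and 18 lower (41.9% higher among the calls, from 59.4%). Median-of-ratios scaling brought the medians over all genes to 0.016 or less and left 18 higher and 14 lower there. A gene that passed the filter only through the group where it was high had to differ, so these counts describe the tested genes and carry no weight as evidence about the 100. Among such genes were Grik1, Gabra2 and Chrm3 through NSC, Chrnb4 through Astrocyte, Chrm1 through Neuron and Chrna7 through Oligodendrocyte. Their tests against that group describe the values only.

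**Figure D1:**
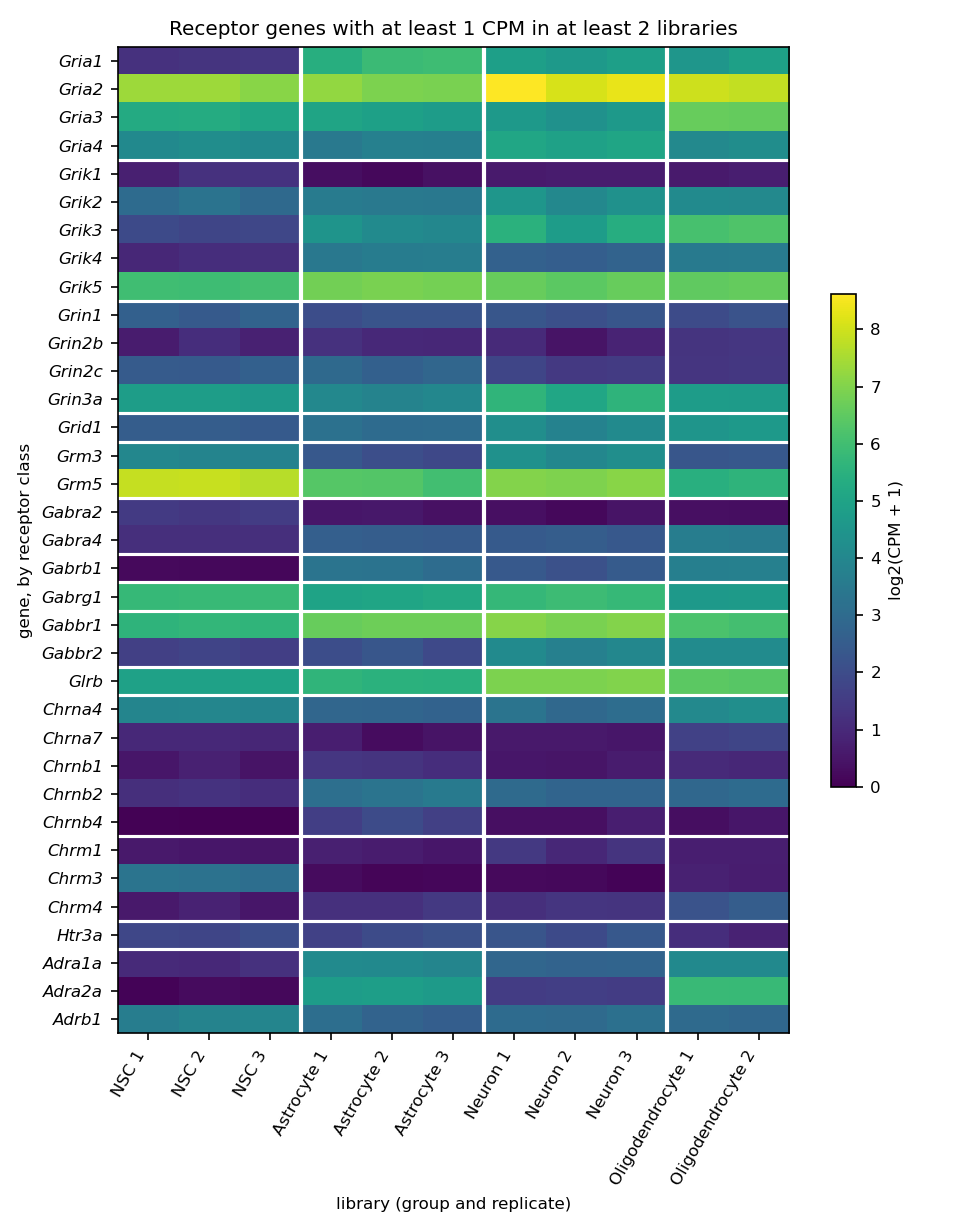
Levels of 35 of the 38 tested receptor genes. Rows are genes by receptor class, columns are the 11 libraries by group, and the colour is log2(CPM + 1). Gria2, Grm5, Grik5, Gabbr1 and Glrb are bright across the libraries, whereas Adra2a, Gabrb1 and Chrnb4 are near 0 in the 3 NSC libraries.

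The same direction in all 3 media was called for 23 of the 38 genes. Higher in all were 17, among them Gria1, Grik2, Grik3, Grik4, Grik5, Grid1, Gabra4, Gabrb1, Gabbr1, Gabbr2, Glrb, Chrnb2, Chrnb4, Chrm4, Adra1a and Adra2a, and 34.4% of all genes had this pattern. The 6 lower ones were Grik1, Grin1, Grm5, Gabra2, Chrm3 and Adrb1, and 25.9% of all genes had theirs. These comparisons share the NSC libraries. Under quantile normalization, Grik2, Grid1, Gabbr2 and Chrm4 were no longer called in Astrocyte vs NSC, Chrm4 and Chrnb4 in Neuron vs NSC, and Chrnb4 in Oligodendrocyte vs NSC. Leaving out Oligodendrocyte replicate 1 or NSC replicate 2 or 3 ended the call of Grik1 in Oligodendrocyte vs NSC, and leaving out Oligodendrocyte replicate 2 that of Chrnb4.

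**Figure D2:**
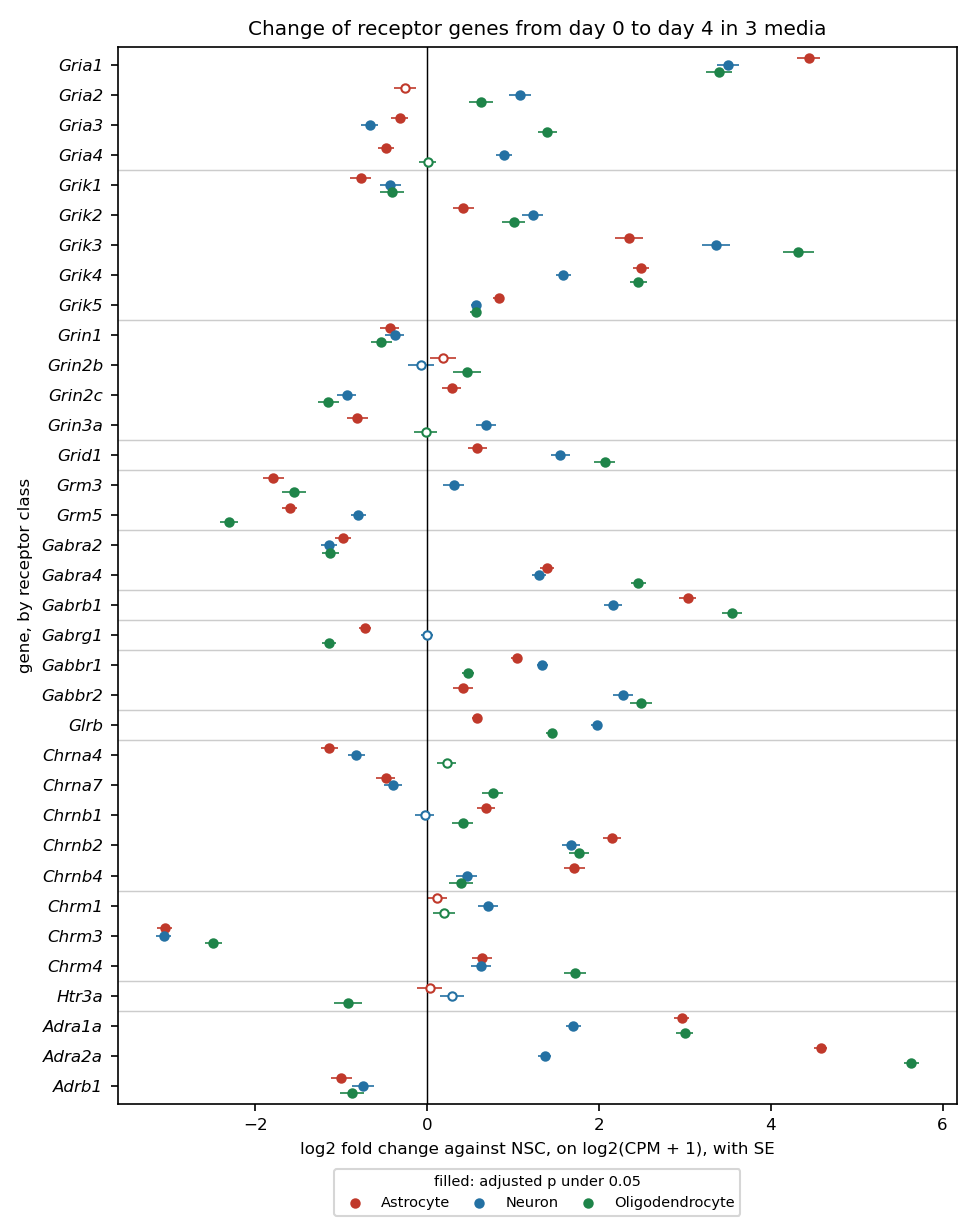
Change of 35 of the 38 tested receptor genes against NSC. Points are log2 fold changes on log2(CPM + 1) with their standard errors for the 3 media, filled where the adjusted p was under 0.05. Adra2a extends farthest to the right, at 5.64 in Oligodendrocyte, and Chrm3 farthest to the left, at -3.07 in Neuron.

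AMPA receptors carry most fast excitatory transmission, and all 4 subunit genes were tested. Gria1, which encodes the GluA1 subunit, rose in every medium. Gria1 (ENSMUSG00000020524, mm9 chromosome 11, 56824889 to 57143746) was at 1.37, 1.46 and 1.60 CPM in NSC. It was at 41.94, 57.68 and 60.82 CPM in Astrocyte, 28.45, 24.58 and 28.35 CPM in Neuron, and 21.92 and 28.75 CPM in Oligodendrocyte. All day 4 libraries lay above all NSC libraries, and the Astrocyte libraries lay above the rest. The log2 fold change against NSC was 4.44 (SE 0.132, adjusted p 1.22e-12) in Astrocyte, 3.50 (SE 0.132, adjusted p 1.52e-11) in Neuron and 3.40 (SE 0.147, adjusted p 8.41e-11) in Oligodendrocyte. Astrocyte exceeded Neuron 1.97-fold (adjusted p 3.44e-05), while Oligodendrocyte and Neuron overlapped and did not pass the test (-0.10, adjusted p 0.546).

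Gria2 encodes the subunit that makes AMPA receptors poorly permeable to calcium. Gria2 (ENSMUSG00000033981, chromosome 3, 80488858 to 80606713) was at 161.72, 164.45 and 136.49 CPM in NSC and 148.3, 120.68 and 117.38 CPM in Astrocyte, where the groups overlapped (log2 fold change -0.26, SE 0.126, adjusted p 0.0695). Neuron had 394.19, 271.29 and 322.54 CPM and Oligodendrocyte 250.57 and 226.23 CPM, all above NSC. The rise was 2.14-fold in Neuron (adjusted p 2.5e-06) and 1.55-fold in Oligodendrocyte (adjusted p 0.00104). Oligodendrocyte was lower than Neuron by a log2 fold change of -0.45 (adjusted p 0.0125), a call lost without Oligodendrocyte replicate 2 (adjusted p 0.103). The Astrocyte value against NSC was called without Neuron replicate 2 (adjusted p 0.0159), without Neuron replicate 1 (0.0306), without NSC replicate 3 (0.0359) or without Astrocyte replicate 1 (0.0204), and under median-of-ratios scaling (-0.42, adjusted p 0.00527). It was also called when only these 2 groups were fitted (adjusted p 0.0186) and with the replicate number as a block (adjusted p 0.0255).

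Gria3 moved in opposite directions with and without added T3. Gria3 (ENSMUSG00000001986, chromosome X, 38754031 to 39031778) was at 37.8, 38.45 and 32.54 CPM in NSC, 32.07, 28.69 and 25.96 CPM in Astrocyte, and 24.15, 19.51 and 23.81 CPM in Neuron. Oligodendrocyte had 98.12 and 95.84 CPM, far above every other library. Against Neuron this was 4.31-fold (log2 fold change 2.07, SE 0.108, adjusted p 3.05e-09). Against NSC it was higher by 1.40 in Oligodendrocyte (adjusted p 3.84e-08) and lower by -0.67 in Neuron (adjusted p 2.09e-05) and -0.32 in Astrocyte (adjusted p 0.00768). Gria4, with 16.61 ± 1.04 CPM in NSC (SD, n = 3), was highest in Neuron, at 31.71 ± 2.04 CPM (SD, n = 3), and lowest in Astrocyte, at 11.69 ± 1.34 CPM (SD, n = 3). Astrocyte was below Neuron by a log2 fold change of -1.37 (adjusted p 3.1e-08).

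Per kilobase of exon, Gria2 led the AMPA genes in NSC (9.92 CPM per kb, against 0.244 for Gria1), Neuron (21.2 against 4.49) and Oligodendrocyte (15.3 against 4.19). In Astrocyte Gria1 and Gria2 were close, at 8.85 and 8.28 CPM per kb. In Oligodendrocyte Gria3 stood between them, at 9.84 CPM per kb. The exon lengths come from a later annotation than the one counted, so a small difference between genes on this scale sets no order.

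**Figure D3:**
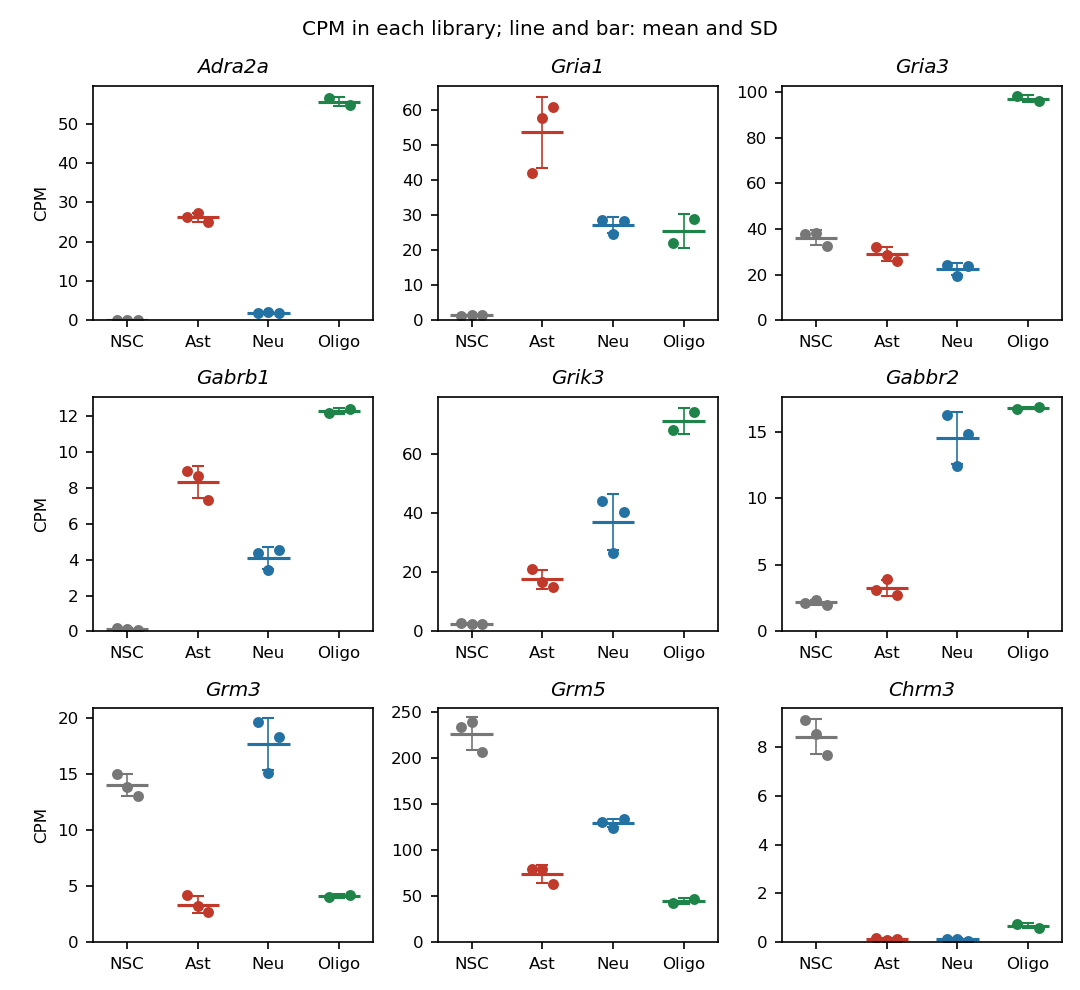
CPM of 9 receptor genes in each library, with the group mean as a line and the SD as a bar. Each axis is linear and starts at 0. Adra2a and Gria3 are highest in the 2 Oligodendrocyte libraries, Gria1 in the 3 Astrocyte libraries and Grm3 in the 3 Neuron libraries, while Grm5 and Chrm3 are highest in NSC.

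Kainate receptors are glutamate-gated channels that also modulate transmitter release. All 5 subunit genes were tested, and 4 (Grik2, Grik3, Grik4 and Grik5) rose in every medium. Grik3 (ENSMUSG00000001985, chromosome 4, 125167944 to 125391417) was at 2.85, 2.46 and 2.53 CPM in NSC, 21.08, 16.58 and 15.11 CPM in Astrocyte, 44.16, 26.42 and 40.51 CPM in Neuron, and 68.13 and 74.40 CPM in Oligodendrocyte. The 4 groups did not overlap. The log2 fold change against NSC was 2.35 (SE 0.159, adjusted p 7.45e-09) in Astrocyte, 3.36 (SE 0.159, adjusted p 1.74e-10) in Neuron and 4.32 (SE 0.178, adjusted p 5.16e-11) in Oligodendrocyte. Oligodendrocyte exceeded Neuron 1.92-fold (adjusted p 0.000354).

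Grik5, which encodes a high-affinity subunit that needs a low-affinity partner to form a channel, led its class. Grik5 (ENSMUSG00000003378, chromosome 7, 25794872 to 25857388) was at 62.10, 61.42 and 65.93 CPM in NSC and between 87.32 and 116.66 CPM in every day 4 library. The rise was 1.79-fold in Astrocyte (adjusted p 1.64e-08) and 1.49-fold in both Neuron (adjusted p 1.02e-06) and Oligodendrocyte (adjusted p 3.7e-06). It had 12.2 to 21.9 CPM per kb as group means, and no other kainate gene passed 7.94 CPM per kb, the level of Grik3 in Oligodendrocyte. Among the low-affinity partners, Grik2 was at 7.54 ± 1.12 CPM in NSC (SD, n = 3) and 19.08 ± 3.31 CPM in Neuron (SD, n = 3; 2.53-fold, adjusted p 3.36e-07). Grik4, the other high-affinity gene, was at 1.13 ± 0.161 CPM in NSC and 10.98 ± 0.904 CPM in Astrocyte (SD, n = 3 each), a rise of 2.49 on the log2 scale (adjusted p 8.65e-12). Grik1 was at 1.40 CPM or less everywhere and lower in every medium, with -0.77 in Astrocyte (adjusted p 4.77e-05) and -0.41 in Oligodendrocyte (adjusted p 0.0138), the latter lost without Oligodendrocyte replicate 1 (adjusted p 0.0900).

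NMDA receptors are glutamate-gated channels with high calcium permeability, and a channel needs the subunit encoded by Grin1. Of the 7 genes 4 were tested. Grin1 itself was low, at 5.16 ± 0.663 CPM in NSC, 3.54 ± 0.341 CPM in Astrocyte, 3.73 ± 0.378 CPM in Neuron (SD, n = 3 each) and 3.25 ± 0.495 CPM in Oligodendrocyte (SD, n = 2). It was lower than NSC in each medium, by -0.44, -0.38 and -0.53 on the log2 scale (adjusted p 0.00196, 0.00513 and 0.00107). Grin3a, whose product lowers the current of the receptors it joins, stood above Grin1 per kilobase in every group, at 1.18 to 3.54 against 0.335 to 0.532 CPM per kb.

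Grin3a (ENSMUSG00000039579, chromosome 4, 49674483 to 49858616) was at 27.13, 27.07 and 24.65 CPM in NSC and 15.18, 13.42 and 14.99 CPM in Astrocyte. Neuron had 48.99, 33.13 and 48.21 CPM and Oligodendrocyte 26.39 and 25.61 CPM. Neuron libraries were all above NSC, Astrocyte libraries all below, and Oligodendrocyte libraries within the NSC range. The log2 fold change against NSC was 0.68 in Neuron (SE 0.120, adjusted p 0.000124), -0.81 in Astrocyte (SE 0.120, adjusted p 2.46e-05) and -0.01 in Oligodendrocyte (SE 0.134, adjusted p 0.928). Astrocyte was 0.334 times the Neuron level (adjusted p 1.87e-07).

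Grin2c, a regulatory subunit gene that astrocytes are known to express, had the reverse pattern. Grin2c (ENSMUSG00000020734, chromosome 11, 115110483 to 115128557) was at 4.63, 4.41 and 5.22 CPM in NSC, 6.74, 5.24 and 6.14 CPM in Astrocyte, 2.48, 1.73 and 1.84 CPM in Neuron, and 1.54 and 1.63 CPM in Oligodendrocyte. Astrocyte exceeded Neuron 3.00-fold (log2 fold change 1.23, SE 0.111, adjusted p 5.96e-07). The rise of 0.29 against NSC in Astrocyte (adjusted p 0.0273) was lost without NSC replicate 1 or 2 or Astrocyte replicate 1 or 3 (adjusted p 0.0630 to 0.111) and reversed under quantile normalization (-0.16, adjusted p 0.146). The falls in Neuron (-0.94, adjusted p 2.78e-06) and Oligodendrocyte (-1.15, adjusted p 1.19e-06) were called. Grin2b stayed at 1.55 CPM or less, and Grin2a, Grin2d and Grin3b did not pass the filter.

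Delta receptors resemble glutamate-gated channels in sequence and organise synapses through secreted partners. Grid1 (ENSMUSG00000041078, chromosome 14, 35633011 to 36396565) was at 4.78, 4.88 and 4.50 CPM in NSC, 8.39, 7.13 and 7.28 CPM in Astrocyte, 18.37, 13.07 and 16.29 CPM in Neuron, and 21.50 and 24.52 CPM in Oligodendrocyte. The 4 groups did not overlap. Against NSC the log2 fold change was 0.59 in Astrocyte (adjusted p 0.000223, not called under quantile normalization, 0.206), 1.55 in Neuron (adjusted p 1.26e-08) and 2.07 in Oligodendrocyte (adjusted p 2.35e-09).

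Metabotropic glutamate receptors act through G proteins, and 3 of 8 genes were tested. Grm5 fell in every medium. It encodes a receptor that raises intracellular calcium and is known in radial glia and immature astrocytes. Grm5 (ENSMUSG00000049583, chromosome 7, 94750952 to 95283417) was at 234.36, 239.59 and 206.72 CPM in NSC. It was at 79.87, 79.64 and 63.54 CPM in Astrocyte, 130.59, 124.51 and 134.12 CPM in Neuron, and 42.45 and 47.67 CPM in Oligodendrocyte. No 2 groups overlapped. The log2 fold change against NSC was -1.60 (SE 0.090, adjusted p 9.69e-10) in Astrocyte, -0.80 (SE 0.090, adjusted p 1.67e-06) in Neuron and -2.31 (SE 0.101, adjusted p 9.12e-11) in Oligodendrocyte. With T3, Grm5 was at 0.347 times the Neuron level (adjusted p 3.03e-08).

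Grm3, which encodes a receptor that lowers cyclic AMP, is widely expressed in astrocytes in vivo. Grm3 (ENSMUSG00000003974, chromosome 5, 9485236 to 9725352) was at 15.01, 13.86 and 13.04 CPM in NSC and 19.62, 15.06 and 18.24 CPM in Neuron. It was at 4.18, 3.25 and 2.67 CPM in Astrocyte and 4.00 and 4.23 CPM in Oligodendrocyte. The latter 2 groups overlapped each other and lay below every NSC and Neuron library. Against Neuron the log2 fold change was -2.10 in Astrocyte (SE 0.124, adjusted p 1.15e-08) and -1.86 in Oligodendrocyte (SE 0.138, adjusted p 8.55e-08). Neuron was higher than NSC by 0.31 (adjusted p 0.0321), a call lost when any of NSC replicate 2 or 3 or Neuron replicate 1 or 3 was left out (adjusted p 0.0694 to 0.124). Of the 10 astrocyte markers 4 were called higher and 6 lower in Astrocyte than in Neuron (40.3% and 22% of all genes). Per kilobase Grm5 exceeded Grm3 in each group, for instance 12.7 against 5.79 CPM per kb in Neuron.

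GABA-A receptors are chloride channels usually made of alpha, beta and gamma subunits. The tested subunits were 2 of 6 alpha, 2 of 3 beta, 1 of 3 gamma and 0 of 7 other genes. Gabrb1 rose from near the limit of detection. Gabrb1 (ENSMUSG00000029212, chromosome 5, 72091171 to 72529628) was at 0.17, 0.14 and 0.10 CPM in NSC, 8.97, 8.68 and 7.31 CPM in Astrocyte, 4.36, 3.42 and 4.54 CPM in Neuron, and 12.15 and 12.40 CPM in Oligodendrocyte. The 4 groups did not overlap. The log2 fold change against NSC was 3.03 (SE 0.102, adjusted p 4.37e-12) in Astrocyte, 2.16 (SE 0.102, adjusted p 1.62e-10) in Neuron and 3.55 (SE 0.114, adjusted p 4.29e-12) in Oligodendrocyte. With T3 it was 2.99 times the Neuron level (adjusted p 2.1e-07).

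The 2 alpha genes went in opposite directions. Gabra4 (ENSMUSG00000029211, chromosome 5, 71960973 to 72049547) was at 1.22, 1.22 and 1.23 CPM in NSC, 5.18, 4.84 and 4.54 CPM in Astrocyte, 4.38, 4.86 and 4.23 CPM in Neuron, and 11.48 and 10.98 CPM in Oligodendrocyte. It was higher in all media, by a log2 fold change of 2.46 in Oligodendrocyte (SE 0.089, adjusted p 1.38e-11), and 2.50 times as high there as in Neuron (adjusted p 1.14e-07). Gabra2 (ENSMUSG00000000560, chromosome 5, 71352296 to 71487088) was at 1.76, 1.66 and 1.87 CPM in NSC and 0.13 to 0.47 CPM in every day 4 library. Its falls were -0.98 in Astrocyte, -1.14 in Neuron and -1.13 in Oligodendrocyte (adjusted p 2.14e-07, 4.38e-08 and 1.89e-07), with no call between media. Gabra2 passed the filter only through NSC, so these tests against NSC are given as description.

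Gabrg1 was the only gamma gene tested. Gabrg1 (ENSMUSG00000001260, chromosome 5, 71142286 to 71233856) was at 54.50, 55.32 and 56.29 CPM in NSC and 52.21, 59.40 and 53.94 CPM in Neuron. It was at 30.75, 32.39 and 36.09 CPM in Astrocyte and 24.13 and 24.96 CPM in Oligodendrocyte, below every NSC and Neuron library. Oligodendrocyte had 0.445 times the Neuron level (log2 fold change -1.14, SE 0.078, adjusted p 4.01e-08), and Neuron vs NSC did not pass the test (-0.01, adjusted p 0.931). Per kilobase, Gabrg1 (3.12 to 7.04 CPM per kb) exceeded both alpha genes (at most 1.85) in each group. Gabrg1, Gabra2, Gabra4 and Gabrb1 follow each other within chromosome 5, 71142286 to 72529628, and did not share a direction.

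GABA-B receptors require both subunits, Gabbr1 binding GABA and Gabbr2 coupling to the G protein. Gabbr1 (ENSMUSG00000024462, chromosome 17, 37182911 to 37212012) was at 47.85, 51.52 and 48.81 CPM in NSC, 97.79, 105.41 and 105.79 CPM in Astrocyte, 131.13, 118.63 and 130.25 CPM in Neuron, and 71.79 and 65.94 CPM in Oligodendrocyte. The 4 groups did not overlap. Its log2 fold change against NSC was 1.04 (SE 0.063, adjusted p 2.04e-09), 1.34 (SE 0.063, adjusted p 1.55e-10) and 0.47 (SE 0.070, adjusted p 3.07e-05) in Astrocyte, Neuron and Oligodendrocyte.

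Gabbr2 followed another order. Gabbr2 (ENSMUSG00000039809, chromosome 4, 46675190 to 47004745) was at 2.11, 2.39 and 2.02 CPM in NSC, 3.13, 3.94 and 2.70 CPM in Astrocyte, 16.28, 12.41 and 14.86 CPM in Neuron, and 16.71 and 16.84 CPM in Oligodendrocyte. Neuron and Oligodendrocyte were 6.68-fold and 7.72-fold above NSC (adjusted p 3.58e-10 and 5.84e-10). Astrocyte was 0.224 times the Neuron level (adjusted p 1.81e-08), and its rise over NSC of 0.42 (adjusted p 0.00454) turned to -0.25 (adjusted p 0.0693) under quantile normalization. Per kilobase, Gabbr1 stood at 6.36 and Gabbr2 at 0.325 CPM per kb in NSC, 13.3 and 0.487 in Astrocyte, 16.3 and 2.17 in Neuron, and 8.87 and 2.51 in Oligodendrocyte.

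Glycine receptors were represented by Glrb alone of 5 genes. Its product anchors the channel to the scaffold protein gephyrin and forms no channel without an alpha subunit. Glrb (ENSMUSG00000028020, chromosome 3, 80647521 to 80717582) was at 29.75, 29.91 and 31.36 CPM in NSC, 48.91, 44.79 and 44.01 CPM in Astrocyte, 119.24, 119.21 and 127.76 CPM in Neuron, and 86.56 and 82.76 CPM in Oligodendrocyte. The 4 groups did not overlap. Neuron was 4.02-fold above NSC (log2 fold change 1.97, SE 0.060, adjusted p 1.82e-12), Oligodendrocyte 2.79-fold (adjusted p 1.58e-10) and Astrocyte 1.51-fold (adjusted p 6.36e-07). Of the alpha genes, Glra1 and Glra3 were listed at 0 in every library, Glra2 did not pass the filter, and Glra4 reached 0.32 CPM at most.

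Nicotinic receptors are acetylcholine-gated channels, and 5 of 16 subunit genes were tested. Chrna4 and Chrnb2 encode the subunits of the main heteromeric receptor of the brain. Chrna4 (ENSMUSG00000027577, chromosome 2, 180753085 to 180778251) was at 14.32, 14.55 and 13.90 CPM in NSC, 6.16, 6.06 and 5.54 CPM in Astrocyte, 8.93, 6.59 and 7.50 CPM in Neuron, and 15.62 and 18.27 CPM in Oligodendrocyte. It fell in Astrocyte by -1.14 (SE 0.099, adjusted p 1.02e-07) and in Neuron by -0.82 (SE 0.099, adjusted p 3.24e-06). With T3 it was 2.21 times the Neuron level (adjusted p 2.15e-06). Oligodendrocyte lay above NSC without passing the test (0.23, adjusted p 0.0702). It was called without Neuron replicate 1 (0.0378) or Neuron replicate 2 (0.0308), with a pseudocount of 5 CPM (0.0429) and when only these groups were fitted (0.0218). Without Oligodendrocyte replicate 1 the log2 fold change was 0.34. The difference between Astrocyte and Neuron (-0.32, adjusted p 0.0129) was lost without Neuron replicate 1 (0.0658).

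Its partner Chrnb2 rose in every medium, also in Astrocyte and Neuron, where Chrna4 fell. Chrnb2, at 1.27 ± 0.0987 CPM in NSC (SD, n = 3), reached 9.14 ± 1.33 CPM in Astrocyte and 6.27 ± 0.618 CPM in Neuron (SD, n = 3 each), and 6.70 ± 0.438 CPM in Oligodendrocyte (SD, n = 2). All 3 rises were called (log2 fold changes 2.15, 1.68 and 1.76, adjusted p 1.8e-10, 2.79e-09 and 6.46e-09). Chrna7 encodes a subunit that forms calcium-permeable channels on its own. Chrna7 (ENSMUSG00000030525, chromosome 7, 70243578 to 70357455) was at 1.00, 0.99 and 0.88 CPM in NSC, 0.65, 0.21 and 0.37 CPM in Astrocyte, 0.51, 0.51 and 0.44 CPM in Neuron, and 2.18 and 2.46 CPM in Oligodendrocyte. With T3 it was 4.77 times the Neuron level (log2 fold change 1.16, SE 0.119, adjusted p 1.77e-06). Chrna7 passed the filter only through the Oligodendrocyte libraries, so tests against them are given as description. It was higher than NSC in Oligodendrocyte (0.76, adjusted p 4.68e-05, not called under quantile normalization, 0.385) and lower in Neuron (-0.40, adjusted p 0.00356) and Astrocyte (-0.48, adjusted p 0.000818).

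Chrnb4, a beta subunit gene of autonomic ganglia and the habenula, appeared mainly in the Astrocyte medium. Chrnb4 (ENSMUSG00000035200, chromosome 9, 54875963 to 54896351) was at 0.03, 0 and 0.02 CPM in NSC, under the 3-read limit, so no fold is given against it. Astrocyte had 2.06, 2.90 and 2.11 CPM, Neuron 0.28, 0.28 and 0.67 CPM, and Oligodendrocyte 0.25 and 0.43 CPM. Astrocyte exceeded Neuron 5.75-fold (adjusted p 1.38e-06). Chrnb4 passed the filter only through the Astrocyte libraries, so this test is given as description. The muscle-type gene Chrnb1 stayed at 1.58 CPM or less. Lynx1, which encodes a membrane-anchored modulator of nicotinic receptors, was at 6.85 ± 0.561 CPM in NSC, 62.29 ± 7.50 CPM in Astrocyte, 14.95 ± 1.35 CPM in Neuron (SD, n = 3 each) and 80.7 ± 0.771 CPM in Oligodendrocyte (SD, n = 2).

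Muscarinic receptors couple acetylcholine to G proteins, and 3 of 5 genes were tested. Chrm3, whose product raises intracellular calcium, had the largest fall of the 38 genes on the log2 scale in all 3 media. Chrm3 (ENSMUSG00000046159, chromosome 13, 9876381 to 9878329) was at 9.07, 8.51 and 7.65 CPM in NSC, 0.19, 0.08 and 0.12 CPM in Astrocyte, 0.16, 0.15 and 0.05 CPM in Neuron, and 0.75 and 0.60 CPM in Oligodendrocyte. Day 4 libraries lay far below NSC and, in Astrocyte and Neuron, near the limit of detection. The log2 fold changes were -3.06 (SE 0.090, adjusted p 1.18e-12), -3.07 (SE 0.090, adjusted p 1.35e-12) and -2.49 (SE 0.101, adjusted p 4.32e-11) in Astrocyte, Neuron and Oligodendrocyte. Chrm3 passed the filter only through NSC, so these tests are given as description. Chrm4, which encodes a receptor that lowers cyclic AMP, went up instead, from 0.573 ± 0.180 CPM in NSC (SD, n = 3) to 4.19 ± 0.863 CPM in Oligodendrocyte (SD, n = 2; 7.31-fold, adjusted p 3.11e-08). Its rises of 0.64 in Astrocyte and 0.62 in Neuron were not called under quantile normalization. Chrm1 was highest in Neuron, at 1.37 ± 0.372 CPM (SD, n = 3).

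Serotonin receptors were represented by Htr3a alone of 14 genes. It encodes a subunit of a serotonin-gated ion channel and marks a class of cortical interneurons. Htr3a (ENSMUSG00000032269, chromosome 9, 48707319 to 48719204) was at 2.60, 2.48 and 3.13 CPM in NSC, 2.19, 2.90 and 3.41 CPM in Astrocyte, 3.84, 2.80 and 4.13 CPM in Neuron, and 1.21 and 0.76 CPM in Oligodendrocyte. The Oligodendrocyte libraries lay below all others and the remaining groups overlapped. With T3 it was 0.274 times the Neuron level (log2 fold change -1.21, SE 0.161, adjusted p 2.02e-05). In Astrocyte vs NSC it did not pass (0.03, adjusted p 0.860), whereas quantile normalization gave -0.61 (adjusted p 0.000981). Neuron vs NSC (0.29, adjusted p 0.0781) and Astrocyte vs Neuron (-0.26, adjusted p 0.132) were called without Neuron replicate 2 (0.42, adjusted p 0.00867, and -0.39, adjusted p 0.0176), the latter also under median-of-ratios scaling (-0.34, adjusted p 0.0478) and quantile normalization (-0.49, adjusted p 0.00708). The replicate block also gave a call in Neuron vs NSC (adjusted p 0.0435). Htr3b, its partner, did not pass the filter. None of the 4 dopamine receptor genes matched passed it, and the D1 receptor gene, listed under its older symbol Drd1a and so outside the search pattern, ranged from 0.03 to 0.57 CPM.

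Adrenergic receptors gave the largest change of all 38 genes. Adra2a encodes the alpha-2A receptor, which lowers cyclic AMP on binding noradrenaline. Adra2a (ENSMUSG00000033717, chromosome 19, 54119672 to 54123472) was at 0.07, 0.19 and 0.15 CPM in NSC, 26.30, 27.33 and 24.95 CPM in Astrocyte, 1.89, 2.05 and 1.87 CPM in Neuron, and 56.40 and 54.77 CPM in Oligodendrocyte. The 4 groups stood far apart with little spread inside each. The log2 fold change against NSC was 4.58 (SE 0.077, adjusted p 1.06e-14) in Astrocyte, 1.37 (SE 0.077, adjusted p 1.02e-09) in Neuron and 5.64 (SE 0.086, adjusted p 2.14e-14) in Oligodendrocyte. With T3 it was 28.7 times the Neuron level (log2 fold change 4.27, SE 0.086, adjusted p 1.17e-12). Astrocyte, whose medium differed in base, supplement and serum, was at 13.5 times the Neuron level (adjusted p 1.09e-11).

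Adra1a, whose product raises intracellular calcium and is prominent in astrocytes, also rose in every medium. Adra1a (ENSMUSG00000045875, chromosome 14, 67254088 to 67390005) was at 1.05, 0.99 and 1.36 CPM in NSC, 16.49, 16.17 and 14.18 CPM in Astrocyte, 6.19, 5.65 and 5.92 CPM in Neuron, and 16.03 and 15.98 CPM in Oligodendrocyte. Astrocyte and Oligodendrocyte overlapped (log2 fold change 0.04, adjusted p 0.777) and lay above Neuron (1.26 and 1.30, adjusted p 5.73e-08 and 1.09e-07). Adrb1 fell in all media, from 13.06 ± 1.34 CPM in NSC (SD, n = 3) to 6.12 ± 1.44 CPM in Astrocyte, 7.39 ± 0.622 CPM in Neuron (SD, n = 3 each) and 6.67 ± 0.368 CPM in Oligodendrocyte (SD, n = 2), with adjusted p of 5.62e-06, 9.44e-05 and 6.77e-05.

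Between the media at day 4, 12 receptor genes differed at least 2-fold on log2(CPM + 1) in each comparison. In Astrocyte vs Neuron 11 were higher and 16 lower (71.1%, against 62.2% of all genes, 40.3% higher and 22% lower). The 12 (31.6%, against 9.34%) were 4 higher and 8 lower, where 6.39% and 2.95% of all genes were. In Oligodendrocyte vs Neuron, which differ by the added T3, 15 were higher and 11 lower (68.4%, against 67.5% of all genes, 43.9% higher and 23.6% lower). The 12 (31.6%, against 12.5%) were 8 higher and 4 lower. For Oligodendrocyte against Astrocyte 20 were higher and 9 lower (76.3%, against 52.2% of all genes, 28.7% higher and 23.5% lower). The 12 (31.6%, against 7.94%) were 9 higher and 3 lower, where 4.53% and 3.41% of all genes were. These counts include Chrnb4 and Chrna7, which passed the filter only through Astrocyte and only through Oligodendrocyte, respectively. Their comparisons with that group describe the values only. Libraries did not overlap for 27, 29 and 32 receptor genes (71.1%, 76.3% and 84.2%, against 63%, 75.7% and 71.7% of all genes). The median absolute log2 fold change was 0.72, 0.56 and 0.64 for the receptor genes in these 3 comparisons and 0.30, 0.38 and 0.26 for all genes. A pseudocount of 5 CPM reduced the 2-fold counts to 7, 5 and 5. The share of all genes at that setting is not given, so whether the difference from all genes remained cannot be read from them.

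**Figure D4:**
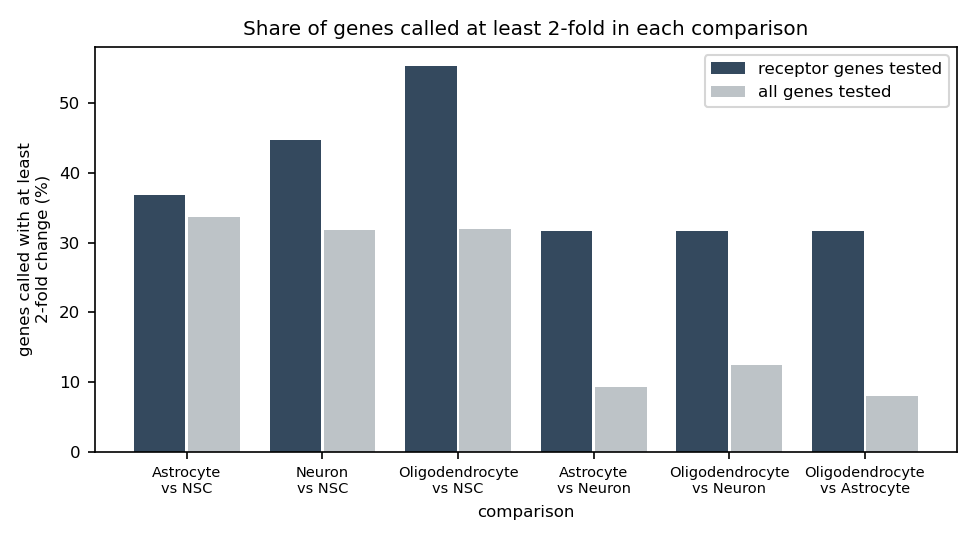
Share of genes called with at least a 2-fold change in each comparison, in percent, for the 38 tested receptor genes and all 13342 tested genes. The bars are similar in Astrocyte vs NSC (36.8% and 33.7%) and farthest apart in Oligodendrocyte vs Astrocyte (31.6% and 7.94%).

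With T3, the 8 genes at least 2-fold higher than in Neuron on log2(CPM + 1) were Adra2a, Gria3, Gabrb1, Adra1a, Chrna7, Gabra4, Chrm4 and Chrna4, in falling order. The 4 at least 2-fold lower were Grm3, Grm5, Htr3a and Gabrg1. Of all genes 8.96% were higher and 3.58% lower to this extent. Some low genes passed 2-fold only by the ratio of mean CPM. For instance, Chrm3 and Chrnb1 were called higher at 5.6 and 2.12 times the Neuron mean, and Chrm1 lower at 0.473 times. Chrna7 passed the filter only through Oligodendrocyte, so its place in the list describes the values only. Oligodendrocyte precursor markers were called higher than in Neuron for 0 of 8 and lower for 5. Mature oligodendrocyte markers were called higher for 5 of 10 and lower for 2, and astrocyte markers higher for 1 of 10 and lower for 8. Of all genes, 43.9% were called higher and 23.6% lower in this comparison.

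**Figure D5:**
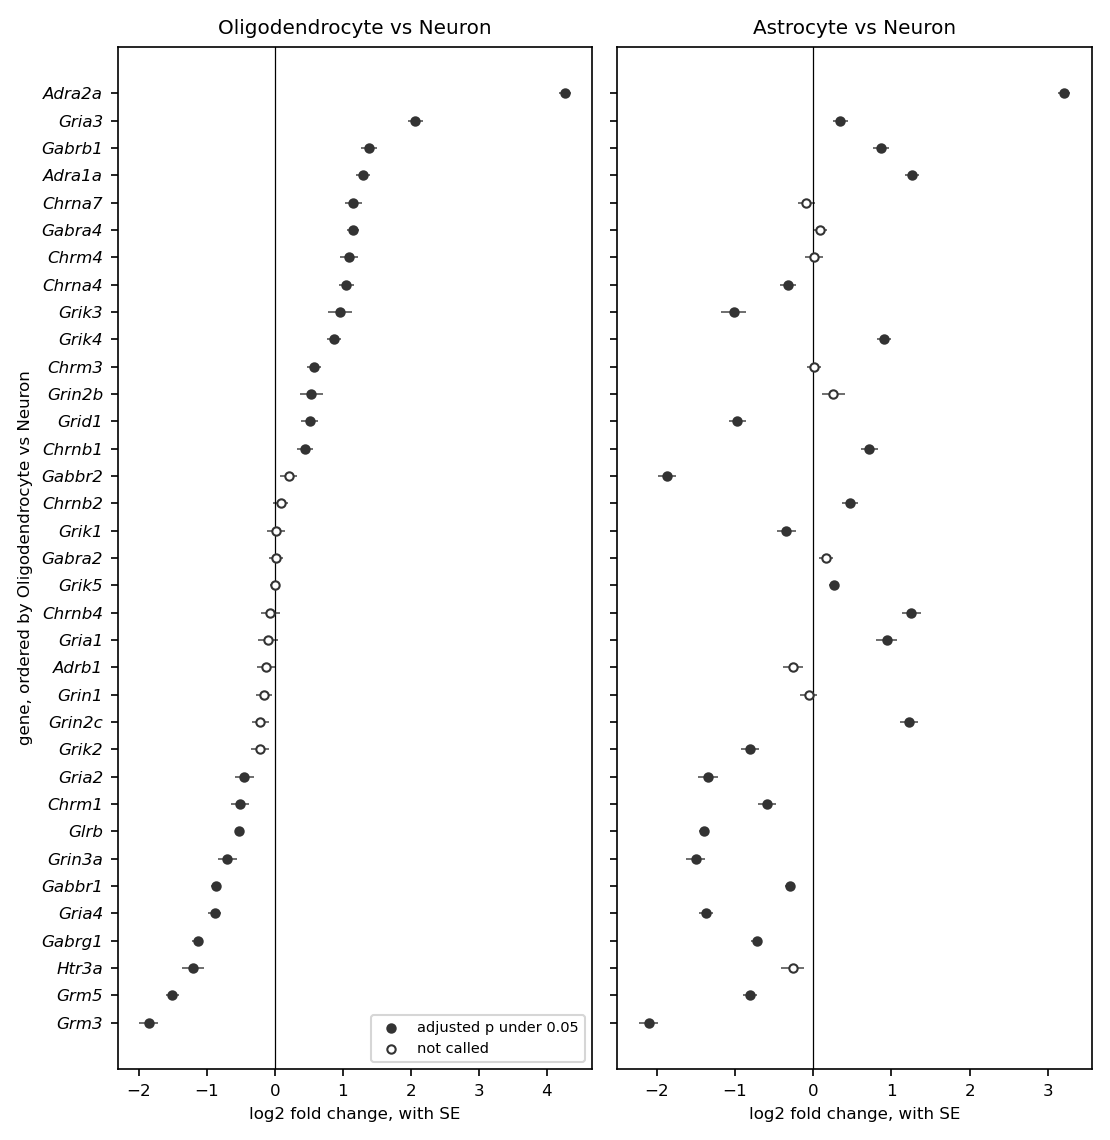
Differences of 35 of the 38 tested receptor genes between media, as log2 fold changes on log2(CPM + 1) with standard errors. Filled points had an adjusted p under 0.05, and genes are ordered by Oligodendrocyte vs Neuron. Adra2a heads both panels, at 4.27 and 3.21, and Grm3 ends both, at -1.86 and -2.10.

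Genes called higher in a group than in each of the other 3 numbered 5 for Astrocyte (Gria1, Grik5, Grin2c, Chrnb2 and Chrnb4; 10.3% of all genes), 8 for Neuron (among them Gria2, Gria4, Grin3a, Grm3, Gabbr1, Glrb and Chrm1; 9.05%) and 9 for Oligodendrocyte (among them Gria3, Grik3, Grid1, Gabra4, Gabrb1, Chrna7, Chrm4 and Adra2a; 12.9%). In the Neuron set, Gria2 lost its call against Oligodendrocyte when Oligodendrocyte replicate 2 was left out (adjusted p 0.103). Grm3 lost its call against NSC as given above, and Chrm1 under quantile normalization (0.0712). In the Astrocyte set, Grik5 and Chrnb2 lost theirs against Oligodendrocyte without Oligodendrocyte replicate 1 (0.0560 and 0.0961), and Grin2c against NSC as given above. In the Oligodendrocyte set, Chrna7 was not called against NSC under quantile normalization. Of the genes named, Chrnb4, Chrm1 and Chrna7 passed the filter only through the group where they were highest. Their places in these sets describe the values only. The lowest level was called in Astrocyte for 4 genes (Gria4, Grik1, Grin3a and Chrna4; 3.87%), in Neuron for Gria3 (15.4%) and in Oligodendrocyte for 3 (Grm5, Gabrg1 and Htr3a; 4.36%). Grik1 lost its call against Oligodendrocyte with a pseudocount of 5, without the filter, under both other scalings and without Neuron replicate 3, Astrocyte replicate 1 or 2, or either Oligodendrocyte replicate (0.0510 to 0.198). Its call against Neuron was lost with a pseudocount of 5 and without Neuron replicate 3 or Astrocyte replicate 2 (0.0651 to 0.0944). Chrna4 lost this place without Neuron replicate 1 (0.0658), and Gria3 did so under quantile normalization (0.0664 for Astrocyte vs Neuron).

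Genes that serve receptors were taken from fixed lists. Of 15 tested genes for auxiliary subunits and modulators, 7 were higher and 5 lower in Astrocyte vs NSC, 7 and 8 in Neuron, and 8 and 4 in Oligodendrocyte. Of all genes tested, 48% were higher and 35.6% lower in Astrocyte vs NSC, 43.5% and 39.6% in Neuron, and 48.1% and 32.2% in Oligodendrocyte. Shisa9, an AMPA receptor auxiliary gene, rose from 1.18 ± 0.182 CPM in NSC (SD, n = 3) to 34.5 ± 1.86 CPM in Oligodendrocyte (SD, n = 2; log2 fold change 4.03, adjusted p 4.32e-12). Neto1, a kainate receptor auxiliary gene, fell from 36.86 ± 3.64 CPM to 7.49 ± 0.403 CPM in Astrocyte (SD, n = 3 each), with a log2 fold change of -2.15 (adjusted p 1.06e-08). The related Neto2 fell to its lowest level in Neuron, 55.64 ± 2.38 CPM (SD, n = 3), from 214.0 ± 18.3 CPM in NSC (SD, n = 3; -1.92, adjusted p 1.87e-11). Of the kainate genes, 4 of 5 subunit genes rose and both auxiliary genes fell in every medium.

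Of 23 postsynaptic scaffold genes tested, 12 were higher and 6 lower in Astrocyte, 10 and 7 in Neuron, and 13 and 4 in Oligodendrocyte, each against NSC. The shares over all genes given above stand beside these counts and those that follow. Dlgap1 rose most, from 3.47 ± 0.203 CPM to 83.82 ± 2.74 CPM in Astrocyte and 86.61 ± 1.71 CPM in Neuron (SD, n = 3 each), rises of 4.25 and 4.29 on the log2 scale (adjusted p 3.57e-15 and 4.41e-15). Dlgap3 of the same family fell, from 35.60 ± 1.39 CPM to 8.90 ± 1.09 CPM in Neuron (SD, n = 3 each; -1.89, adjusted p 2.26e-10). Among genes of transmitter uptake and breakdown, 11 of 14 were higher and 3 lower in Astrocyte, 11 and 2 in Neuron, and 9 and 3 in Oligodendrocyte. The neuronal-type glutamate transporter gene Slc1a1 was at 6.04 ± 0.494 CPM in NSC and 159.0 ± 23.2 CPM in Neuron (SD, n = 3 each; 4.50, adjusted p 2.14e-13). Abat, which encodes the enzyme that degrades GABA, was 3.11 to 3.21 higher on the log2 scale in each medium. Of 13 matched transmitter synthesis and vesicular transporter genes 5 passed the filter, with 4 higher and 1 lower in Astrocyte and in Neuron and 3 and 2 in Oligodendrocyte. Gad1, which encodes a GABA-synthesising enzyme, was at 15.52 ± 0.829 CPM in NSC, 35.29 ± 4.58 CPM in Neuron (SD, n = 3 each) and 8.53 ± 1.56 CPM in Oligodendrocyte (SD, n = 2).

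The receptor genes below the filter were low throughout. The 56 had at most 1.21 CPM in any library, 4 reached 1 CPM in 1 library (Grin2d, Grm2, Gabra3 and Adra1d), and 12 exceeded 0.5 CPM. The 6 listed at 0 everywhere were Gabra6, Gabrp, Glra1, Glra3, Chrna6 and Chrnb3.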

How the data were processed

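RNA was measured in 11 libraries from poly(A)-selecting stranded kits, per the labels' protocols. The authors deposited CPM values for 37991 genes, rounded to 2 decimals, with mm9 gene coordinates, per the file headers. The submitters' processing notes name the build NCBIM37 and bcl2fastq 1.8.4, TopHat2 2.0.8, HTSeq 0.6.1, edgeR 3.2.4, R 3.0.0 and HOMER, without their settings. Whether counting used the strand is not given in the sources used here. Listed genes summed to 75.0% to 80.2% of the CPM total, so the denominator held further reads. Depth was estimated from the spacing of low values.

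CPM was put on log2(CPM + 1), which understates the change of low genes. Genes that reached 1 CPM in 2 or more libraries entered limma 3.58.1 in R 4.3.3 (1 mean per group, a trended prior variance, residual degrees of freedom 7, prior 5.96). The same fit was also run on simulated data. All adjusted p are from limma over all genes in a comparison, and 6 comparisons were made. Receptor genes were named with full values when among the 3 largest rises or falls in a comparison without overlap, or when leading their class in mean CPM. Others have group values, except Chrna7, given in full after its values were seen, and genes of other lists were limited to 4 each, among those with the largest changes. Values of some genes are not reported here, and 3 tested receptor genes are left out of the figures but counted throughout. The members, lists and rules were chosen with earlier results of these data known. Replicates are described as biological by the submitters, with no word on separate dissections. If they share one, p-values measure only the spread between these libraries. Lengths for CPM per kb are unions of exons in GENCODE M21 (GRCm38), which can differ from the models counted. Alternatives were pseudocounts of 0.25 and 5, no filter, 2 other scalings, other variance models, a replicate block and leaving out each library.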

Additional observations from a re-analysis of the deposited data

Results flagged for a closer look

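Several receptor genes were called in opposite directions against NSC in 2 media, and the difference between those media was also tested directly with limma (log2 fold change on log2(CPM + 1), Benjamini-Hochberg adjusted p over all genes). The comparisons with NSC share its libraries. The direct test covers the difference between the media and does not test the direction of either against NSC. Gria3 was higher than NSC with added T3 and lower in the media without this addition. The direct differences were 1.72 for Oligodendrocyte vs Astrocyte (adjusted p 3.57e-08) and 2.07 for Oligodendrocyte vs Neuron (adjusted p 3.05e-09). Chrna7 behaved likewise, with 1.25 (adjusted p 1.64e-06) and 1.16 (adjusted p 1.77e-06). Its rise over NSC was not called under quantile normalization (0.11, adjusted p 0.385), and it passed the filter only through Oligodendrocyte. Grm3 was higher than NSC in Neuron and lower in the other media, with -2.10 for Astrocyte vs Neuron (adjusted p 1.15e-08) and -1.86 for Oligodendrocyte vs Neuron (adjusted p 8.55e-08). Its rise over NSC was lost when 1 of several libraries was left out. Gria4 and Grin3a were higher than NSC in Neuron and lower in Astrocyte, with -1.37 (adjusted p 3.1e-08) and -1.50 (adjusted p 1.87e-07) for Astrocyte vs Neuron. Grin2c was higher than NSC in Astrocyte and lower in the other media, with 1.23 for Astrocyte vs Neuron (adjusted p 5.96e-07) and -1.44 for Oligodendrocyte vs Astrocyte (adjusted p 6.1e-07). Its rise over NSC was not called under 2 other scalings. Groups held 2 or 3 libraries, so single libraries could not be tested as outliers.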

How the results depend on the processing

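Without the filter on low values 94 receptor genes were tested, and 52 were called in Neuron vs NSC and 53 in Oligodendrocyte vs NSC. The larger number of genes tested makes these counts larger by construction. Shares over all genes are not given at the alternative settings, so these counts and those below show only how the receptor calls moved. A pseudocount of 5 left 8 receptor genes with at least 2-fold change in Neuron vs NSC, 7 in Astrocyte vs Neuron, and 5 each when Oligodendrocyte was compared with Neuron or Astrocyte, since it shrinks the fold of low genes. Quantile normalization reversed Gabbr2 (-0.25), Grin2c (-0.16) and Htr3a (-0.61) in Astrocyte vs NSC, and the cause was not tested. Leaving out 1 library at a time gave 31 to 33 calls in Astrocyte vs NSC, 32 to 35 in Neuron vs NSC and in Oligodendrocyte vs NSC, 26 to 28 for Astrocyte vs Neuron, 24 to 27 for Oligodendrocyte vs Neuron, then 26 to 30 for Oligodendrocyte vs Astrocyte. The 2-fold counts ranged over 14 to 15, 16 to 17, 20 to 21, 11 to 14, 10 to 13 and 11 to 13 in that order of comparisons. Of 2736 values of the 24 genes selected for full values under alternatives, 2688 kept their status as called or not called. Values called in neither fit were counted there without a check of direction. Another 24 lost the call and 21 gained it in the same direction, and 3 reversed with a call in at least 1 of the fits. Same-numbered libraries did not deviate together (correlations -0.505 to 0.415, 15 pairs), so the numbers were not taken to pair them. With the replicate number as a block, calls were 33, 35, 34, 27, 26 and 29, with 2 gained (Gria2 in Astrocyte vs NSC, Htr3a in Neuron vs NSC) and 0 lost of 228. The depth allowed detection down to about 0.0609 CPM, and the Oligodendrocyte group had only 2 libraries.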

Other observations

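The genes that share letters with receptor symbols also differed between the cultures. Adrbk1 and Adrbk2 encode kinases that switch off activated G protein-coupled receptors. Adrbk2 was at 24.99, 26.42 and 24.09 CPM in NSC, 17.52, 13.91 and 11.11 CPM in Astrocyte, 59.28, 44.19 and 52.54 CPM in Neuron, and 18.54 and 13.54 CPM in Oligodendrocyte. It was higher than NSC in Neuron (log2 fold change 1.01, limma adjusted p 2.53e-05) and lower in Astrocyte (-0.81, adjusted p 0.000195) and Oligodendrocyte (-0.63, adjusted p 0.00328), and at 0.308 times the Neuron level with T3 (adjusted p 1.58e-06). Adrbk1 was lower than NSC in every medium, from 63.29 ± 2.22 CPM to 37.33 ± 2.31 CPM in Neuron (SD, n = 3 each). The protease gene Htra1 rose in every medium, from 16.82 ± 0.665 CPM in NSC to 80.32 ± 7.34 CPM in Neuron (SD, n = 3 each; 2.19, adjusted p 5.73e-12). It overlaps Fgfr2 on the opposite strand (up to 92.81 CPM), and reads of the pair can be told apart only if the counting used the strand. Htra3 was higher than NSC in Neuron (1.02, adjusted p 5.98e-07) and lower with T3 (-0.73, adjusted p 5.63e-05).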
